A study of Mus musculus with 6 samples.

Results

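The genes described here encode SR proteins, Tra2 proteins, hnRNPs and the subunits of SF3a, SF3b and U2AF, the RNA-binding proteins that choose splice sites together with the U2 snRNP. They were found by gene symbol in the gene table of an RNA-Seq comparison of mouse embryonic stem cell (mESC)-derived motor neurons (MNs). The symbols gave 45 genes of the 34433 in the table, namely 11 SR proteins (Srsf1 to Srsf7 and Srsf9 to Srsf12), 2 Tra2 proteins, 21 hnRNP genes, 8 SF3a and SF3b subunits and 3 U2AF genes. Control MNs came from the Hb9 line, which is wild-type for mouse Smn (SMN2+/+;mSmn+/+), and SMA MNs from the A2 line, which lacks mouse Smn (SMN2+/+;mSmn-/-). Both lines are of FVB/N background, carry the human SMN2 transgene and have an eGFP reporter under the HB9 promoter. Embryoid bodies were treated for 5 days with 1 µM retinoic acid and 1 µM Smoothened agonist, and eGFP-positive, propidium iodide-negative cells were collected by FACS. Each genotype is 1 mESC line with 3 sequenced samples, so genotype and cell line cannot be told apart. The table holds 1 FPKM value (fragments scaled to the length of the transcript and the number of mapped fragments) per genotype, formed by Cuffdiff over the 3 samples. In the following, control and SMA stand for the Hb9 and A2 lines, and a pair of FPKM values is given in that order. The table gives no sample values or SD, and the authors' own test columns were not used, so the values below are given without a test, and the number of reads behind a value is unknown.

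SR proteins carry RNA-recognition motifs and an arginine-serine-rich domain, bind enhancer sequences in exons and help to recruit U1 snRNP and U2AF. The hnRNPs coat nascent pre-mRNA and often oppose the use of a splice site, although several of them also stabilise, transport or silence mRNAs. U2AF reads the pyrimidine tract and the AG at the end of an intron, after which SF3a and SF3b hold the U2 snRNP on the branch point. SMN, the protein lost in SMA, loads Sm proteins on the U snRNAs, U2 among them. Some members also act on SMN2 itself: TRA2B favours the inclusion of its exon 7, whereas hnRNP A1 favours skipping.

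Smn1, the targeted gene, lies on chromosome 13 from 100894807 to 100907645 (NCBI m37, the build of all positions given here). It had 137 FPKM in control MNs and 5.26 FPKM in SMA MNs. Differences were expressed as log2 ratios of FPKM in SMA over control MNs, no pseudocount being added, over the 15784 genes that reached 1 FPKM in one of the genotypes and were not 0 in the other. The median log2 ratio of these genes was -0.29, so each ratio was also read relative to that median. Cell identity differed between the sorted populations by their marker genes. Of 12 pluripotency markers, 11 were higher in SMA MNs by at least 1.5-fold (12.6% of all genes were), and their summed level was 468 FPKM in control and 2083 FPKM in SMA MNs. The sum over 13 pan-neuronal markers was 1866 and 186 FPKM and that over 8 MN markers 343 and 91.0 FPKM, and Chat, which encodes the acetylcholine-synthesising enzyme of MNs, had 15.5 and 0.344 FPKM. In the MN list only Mnx1, the gene of HB9 itself, had a log2 ratio above 0 (0.10). The sum over 7 neural progenitor markers was 950 and 43.8 FPKM, that over 8 fibroblast markers 68.8 and 35.6 FPKM and that over 12 cycling genes 1495 and 1872 FPKM. The part of this difference in the values below was not tested, and in bulk RNA fewer cells of a type and less RNA per cell cannot be told apart.

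Splicing factor genes were abundant in both genotypes and differed little between them. Of the 45 genes, 43 passed the filter. Hnrnpf was listed at 0 in SMA MNs and the pseudogene Hnrnpa1l2-ps at 0 in both. At least 50 FPKM was reached by 32 of the 43 in control MNs and by 31 in SMA MNs, against 23.3% and 19.4% of all genes. Their log2 ratios ran from -1.49 for Srsf12 to 0.38 for Hnrnpd, with a median of -0.11 and quartiles of -0.32 and 0.12. A ratio of at least 1.5-fold was taken as the limit for a difference. By it, 3 of the 43 (7.0%) were lower in SMA MNs, where 35.2% of all genes were, and 0 were higher, where 12.6% of all genes were. The remaining 40 (93.0%) stayed within 1.5-fold, as did 52.2% of all genes. Among the 4039 genes that reached 50 FPKM in one of the genotypes, a limit chosen after the data were seen, 62.8% stayed within 1.5-fold, 26.7% were lower and 10.4% higher, and of 32 members 31 stayed within, 1 was lower and 0 were higher. With 1 value per genotype these shares are descriptions, without a test.

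**Figure D1:**
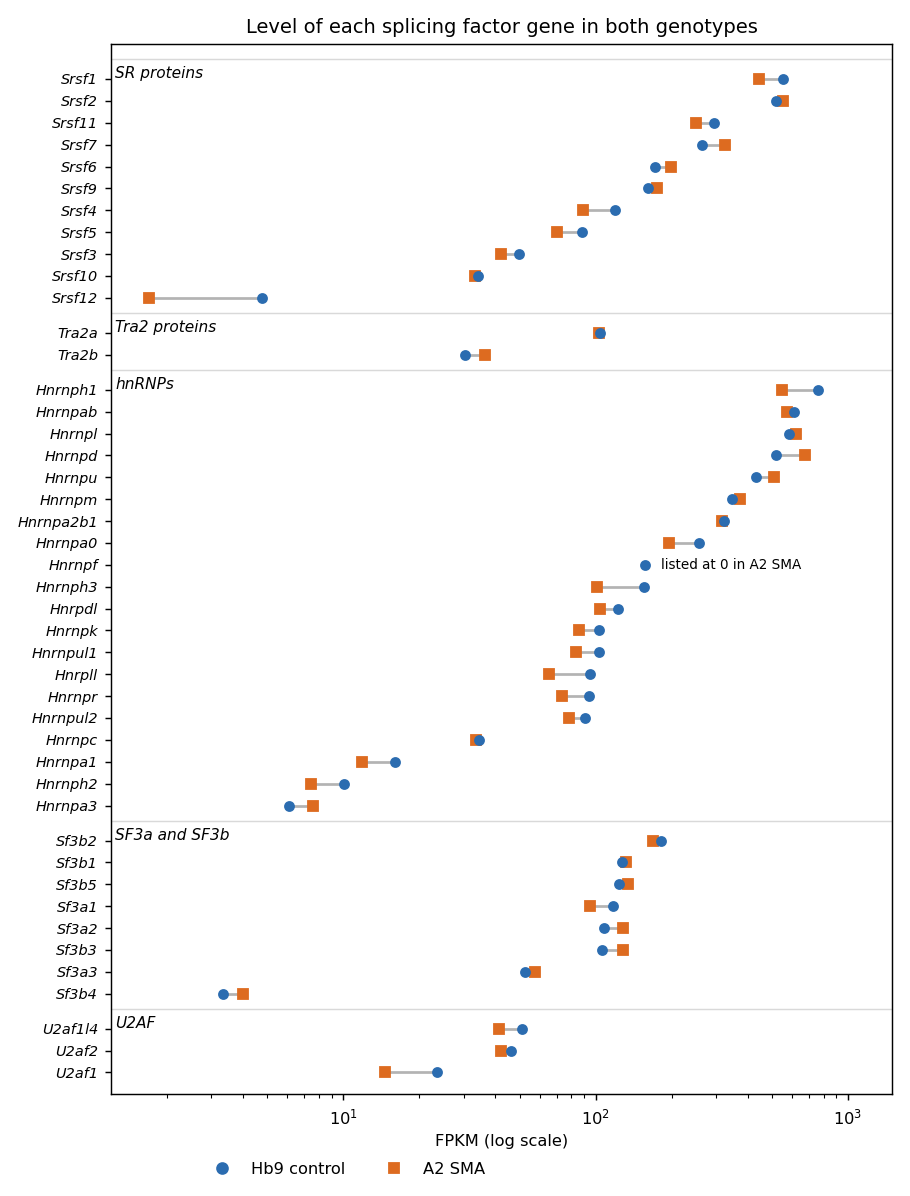
FPKM (log scale) of each gene in control MNs (circles) and SMA MNs (squares), 1 value per genotype, by family. The symbols of a gene lie close together except for Srsf12 (4.76 and 1.70 FPKM), U2af1, Hnrnph3 and Hnrpll, and Hnrnpf has no SMA symbol because it was listed at 0. Hnrnpa1l2-ps, listed at 0 in both genotypes, is not drawn.

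The order of the genes by level was also nearly the same in both genotypes (Spearman's rho 0.985 over 43 genes, whose values come from the same 2 columns). The 43 leave out Hnrnpf. No rho was computed for other genes, so a stable order is not shown to be particular to these members. Of the 10 most abundant members, 9 were shared. Hnrnph1 led in control MNs with 763 FPKM and Hnrnpd led in SMA MNs with 673 FPKM. At the low end, Sf3b4, Srsf12, Hnrnpa3, Hnrnph2 and Hnrnpa1 were under 20 FPKM in control MNs. Hnrnpa1 and Hnrnpa3 have many near-identical processed copies in the mouse genome, so their low levels (16.1 and 6.10 FPKM in control MNs) are uncertain.

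Signs of small ratios depended on scaling. As deposited, 27 of the 43 ratios (62.8%) were below 0 and 16 above, and 65.9% of all genes were below 0. Relative to the median gene 15 were below and 28 above, and 3 genes (Hnrnpd, Hnrnpa3 and Srsf7) were then higher by at least 1.5-fold (20.6% of all genes were) and only Srsf12 was lower (25.4% of all genes). Across the deposited scaling, the median gene, the upper quartile and the 3 qRT-PCR reference transcripts of the study, 12 genes changed sign. Each scaling shifts all genes by 1 constant, so the genes that keep their sign are those with a deposited ratio above 0 (16) or below about -0.29 (15), and this is no separate evidence of a direction. The 12 are Hnrnpk, Srsf11, Srsf3, Hnrpdl, Hnrnpul2, U2af2, Sf3b2, Hnrnpab, Srsf10, Hnrnpc, Hnrnpa2b1 and Tra2a.

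**Figure D2:**
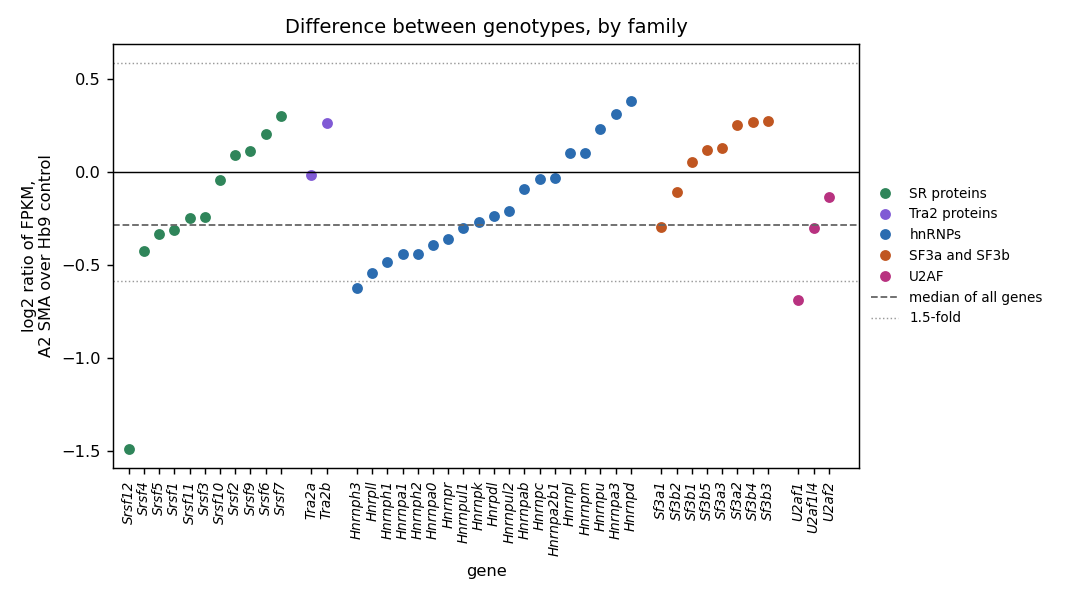
Log2 ratio of FPKM in SMA over control MNs for the 43 genes above the filter, 1 point per gene, ordered within each family. The solid line marks 0, the dashed line the median of all genes (-0.29) and the dotted lines a ratio of 1.5-fold. As deposited, only Srsf12, Hnrnph3 and U2af1 lie past a dotted line, and relative to the median gene Srsf12, Hnrnpd, Hnrnpa3 and Srsf7 do.

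The SR proteins had a summed level of 2260 FPKM in control MNs and 2182 FPKM in SMA MNs, a difference of -3.47%. Their median log2 ratio was -0.24, and 7 of 11 (63.6%, against 65.9% of all genes) were below 0, or 4 of 11 relative to the median gene. Srsf1 (chromosome 11, 87817251 to 87867257), which encodes the founding SR protein, had 553 FPKM in control MNs and 446 FPKM in SMA MNs, a log2 ratio of -0.31. Srsf2 (chromosome 11, 116698746 to 116736949), which encodes the nuclear speckle protein SC35, had 519 and 554 FPKM, a log2 ratio of 0.09. These 2 genes exchanged places at the head of the family. Srsf1 held 24.5% of the summed SR protein FPKM in control MNs and 20.4% in SMA MNs, and Srsf2 held 23.0% and 25.4%. Srsf7 (chromosome 17, 80599376 to 80606680), a shuttling SR protein with a zinc knuckle, had the highest ratio of the family with 264 and 325 FPKM (log2 ratio 0.30). Srsf3, its close relative, had 49.7 and 42.0 FPKM, so that Srsf7 was 5.31 times as abundant as Srsf3 in control MNs and 7.74 times in SMA MNs.

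Srsf12 (chromosome 4, 33295966 to 33320315) had the largest difference of the 43 members above the filter, which leaves out Hnrnpf. It encodes an SR protein that can repress splicing, and it had 4.76 FPKM in control MNs and 1.70 FPKM in SMA MNs. The log2 ratio of -1.49 is a 2.80-fold lower level in SMA MNs. It was also the least abundant SR protein, at the 23.6th percentile of all genes in control MNs and the 14.8th in SMA MNs. With a pseudocount of 1 FPKM its log2 ratio was -1.09, still past 1.5-fold. The other SR proteins all lay within 1.5-fold. Srsf4, Srsf5 and Srsf6 encode related proteins with a pair of RNA-recognition motifs. Srsf4 had 120 and 89.2 FPKM and Srsf5 88.7 and 70.3 FPKM, while Srsf6 had 172 FPKM in control and 198 FPKM in SMA MNs. Srsf9, a relative of Srsf1, had 161 and 174 FPKM. Srsf10, a splicing repressor when dephosphorylated, had 34.2 and 33.2 FPKM, and Srsf11, which works with the neural factor SRRM4 at microexons, had 295 and 249 FPKM.

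Tra2a (chromosome 6, 49193920 to 49214051) and Tra2b (chromosome 16, 22244622 to 22266078) encode SR-like activators that bind purine-rich exonic sequences. Tra2a had 104 FPKM in control MNs and 103 FPKM in SMA MNs. Tra2b had 30.4 and 36.5 FPKM, a log2 ratio of 0.26. Tra2a was thus 3.42 times as abundant as Tra2b in control MNs and 2.82 times in SMA MNs.

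The hnRNP genes had a median log2 ratio of -0.23 over the 19 above the filter, of which 14 (73.7%, against 65.9% of all genes) were below 0, or 8 relative to the median gene. The sum over all 21 was 4823 FPKM in control MNs and 4461 FPKM in SMA MNs, a difference of -7.49%, with Hnrnpf counted at 0 in SMA MNs. Over the 19 above the filter, without Hnrnpf, it was 4665 and 4461 FPKM, a difference of -4.37%. Hnrnph1 (chromosome 11, 50190492 to 50200030) and its relatives encode proteins that bind runs of G. All 3 Hnrnph genes had ratios below 0 and below the median gene. Hnrnph1 had 763 and 546 FPKM (log2 ratio -0.48), Hnrnph2 had 10.1 and 7.43 FPKM (-0.44) and Hnrnph3 (chromosome 10, 62442971 to 62486965) had 156 and 101 FPKM (-0.62). Together they summed to 929 FPKM in control and 655 FPKM in SMA MNs. Hnrnph1 held 15.8% of the summed hnRNP FPKM in control MNs and 12.2% in SMA MNs.

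Hnrnpf, the remaining member of this group, was listed at 157 FPKM in control MNs and at 0 FPKM in SMA MNs. The table has 3 entries for this symbol, all at chromosome 6 from 117850358 to 117875639. The other entries were at 2.43 and 1.38 FPKM in control MNs and at 3.98 and 2.38 FPKM in SMA MNs, so they had the opposite direction. Summed over its entries Hnrnpf had 161 and 6.36 FPKM. No other gene among the 10509 that reached 10 FPKM in one of the genotypes was listed at 0 in a genotype. Cuffdiff did not mark any of the 3 entries as a failed comparison (status OK). An exact 0 can still be a failed estimate, and reads of overlapping entries cannot be told apart here, so no ratio is given for the listed value.

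**Figure D3:**
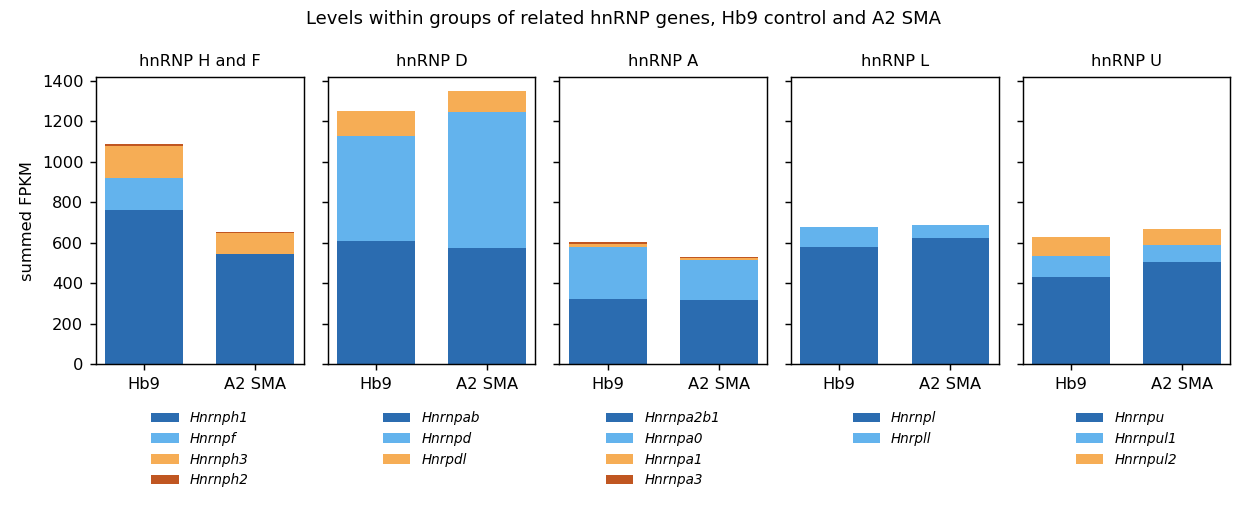
Summed FPKM of 5 groups of related hnRNP genes in control and SMA MNs, each bar divided by gene, 1 value per genotype. The hnRNP H and F bar is lower in SMA MNs (1086 and 655 FPKM) and holds no Hnrnpf there, and Hnrnpd takes a larger part of the hnRNP D bar in SMA MNs.

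Hnrnpd (chromosome 5, 100387445 to 100407957) had the highest ratio of the 43 members above the filter. It encodes AUF1, which binds AU-rich elements and controls mRNA decay, and had 517 FPKM in control MNs and 673 FPKM in SMA MNs, a log2 ratio of 0.38. Its share of the summed hnRNP FPKM was 10.7% in control MNs and 15.1% in SMA MNs. The related Hnrpdl, 54638 bp away on the same chromosome, had 123 and 104 FPKM, a log2 ratio of -0.23, which turned to 0.05 relative to the median gene. Hnrnpab, the third gene of this group, had 611 and 573 FPKM. Within the group Hnrnpd held 41.3% in control and 49.9% in SMA MNs, and it passed Hnrnpab as the most abundant.

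Hnrnpl (chromosome 7, 29593560 to 29607285), which binds CA repeats, had 582 and 624 FPKM, a log2 ratio of 0.10. Its paralog Hnrpll (chromosome 17, 80427424 to 80461769), known for the alternative splicing of Cd45 in lymphocytes, had 94.8 and 65.2 FPKM, a log2 ratio of -0.54. Hnrnpl was 6.13 times as abundant as Hnrpll in control MNs and 9.57 times in SMA MNs. A like pattern was seen for Hnrnpu, the scaffold attachment factor, which had 433 and 508 FPKM and was 4.21 times as abundant as Hnrnpul1 in control MNs and 6.09 times in SMA MNs. Hnrnpul1 had 103 and 83.4 FPKM and Hnrnpul2 had 90.8 and 78.6 FPKM.

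In the hnRNP A group, Hnrnpa2b1, whose protein also carries RNAs to neurites, had 323 and 317 FPKM, and Hnrnpa0 had 257 and 196 FPKM (log2 ratio -0.39). Hnrnpa1 had 16.1 and 11.9 FPKM and Hnrnpa3 had 6.10 and 7.57 FPKM. Hnrnpr (chromosome 4, 135866857 to 135896596) encodes hnRNP R, an SMN-binding protein of MN axons. It had 94.3 FPKM in control MNs and 73.6 FPKM in SMA MNs, a log2 ratio of -0.36, or -0.07 relative to the median gene. The poly-C-binding Hnrnpk had 103 and 85.6 FPKM, the U-tract-binding Hnrnpc had 34.5 and 33.5 FPKM and Hnrnpm had 348 and 374 FPKM.

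SF3a and SF3b genes had a median log2 ratio of 0.12, and 6 of 8 (75%, against 34.1% of all genes) were above 0, or 7 of 8 relative to the median gene. Their summed level was 818 FPKM in control MNs and 848 FPKM in SMA MNs. Sf3b1 (chromosome 1, 55042013 to 55084322), the subunit that clasps the branch point helix, had 127 and 132 FPKM. Sf3b2 (chromosome 19, 5273923 to 5295455) had 181 and 168 FPKM and was the most abundant SF3 gene. Sf3b5 (chromosome 10, 12728256 to 12728988) had 124 and 134 FPKM, Sf3b3 had 106 and 128 FPKM and Sf3b4 had 3.33 and 4.01 FPKM. Of the SF3a subunits, Sf3a2 had 108 and 128 FPKM and Sf3a3 had 52.5 and 57.3 FPKM. Sf3a1 had 117 and 95.4 FPKM and a log2 ratio of -0.29, level with the median gene. Sf3a1 was the most abundant SF3a gene in control MNs and Sf3a2 in SMA MNs.

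The 3 U2AF genes had ratios below 0, as did 65.9% of all genes. Relative to the median gene U2af2 was above 0, and U2af1l4, at -0.013, was level with it. U2af1 (chromosome 17, 31784027 to 31795722), which encodes the small subunit that contacts the AG, had 23.6 FPKM in control MNs and 14.7 FPKM in SMA MNs, a log2 ratio of -0.69. A second entry of U2af1 at the same locus had 7.46 and 4.48 FPKM, a log2 ratio of -0.74, so both entries had the same direction. Read against the median gene, U2af1 had a log2 ratio of -0.40, within 1.5-fold. U2af2 (chromosome 7, 5012532 to 5031549), the large subunit that binds the pyrimidine tract, had 46.4 and 42.2 FPKM. U2af2 was 1.96 times as abundant as U2af1 in control MNs and 2.88 times in SMA MNs. U2af1l4 (chromosome 7, 31348320 to 31352981), a relative of the small subunit, had 50.9 and 41.4 FPKM in an entry shared with Tmem149.

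Of the 45 members, 9 have the Cuffdiff status FAIL, which marks a comparison that Cuffdiff could not complete although it lists FPKM values. They are Srsf2, Srsf4, Hnrnpa1, Hnrnpa2b1, Hnrnph3, Hnrnpk, Hnrnpl, Hnrnpu and Sf3b1. The status was found in 13.9% of all genes above the filter. Without these entries 34 members were left with 2 lower by 1.5-fold (36.1% of all genes were) and 0 higher (12.7% of all genes). A further limit is that 15 of the 45 share their locus with another entry of at least 1 FPKM and 5 share their entry with another symbol.

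The rest of the splicing machinery was read from lists of genes. The 12 kinases and importers of SR proteins had a median log2 ratio of -0.57 over the 11 above the filter, where the SR proteins themselves had -0.24. Of these, 5 were lower by at least 1.5-fold (45.5%, against 35.2% of all genes) and 0 higher. Relative to the median gene 2 were lower, or 18.2% against 25.4% of all genes, and 0 higher. Clk1 to Clk4 encode the nuclear kinases that release SR proteins from speckles, and all 4 had ratios below 0, as did 65.9% of all genes, and below the median gene. Clk4 had 84.8 and 41.1 FPKM (log2 ratio -1.04), Clk3 had 43.4 and 23.2 FPKM (-0.90), Clk1, the most abundant kinase of the list, had 121 and 77.4 FPKM (-0.65) and Clk2 had 94.6 and 63.9 FPKM (-0.57). Of the cytoplasmic kinases, Srpk1 had 67.2 and 67.4 FPKM and Srpk2 had 59.7 and 38.5 FPKM. Tnpo3, which imports SR proteins into the nucleus, had the highest ratio of the list with 118 and 128 FPKM.

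**Figure D4:**
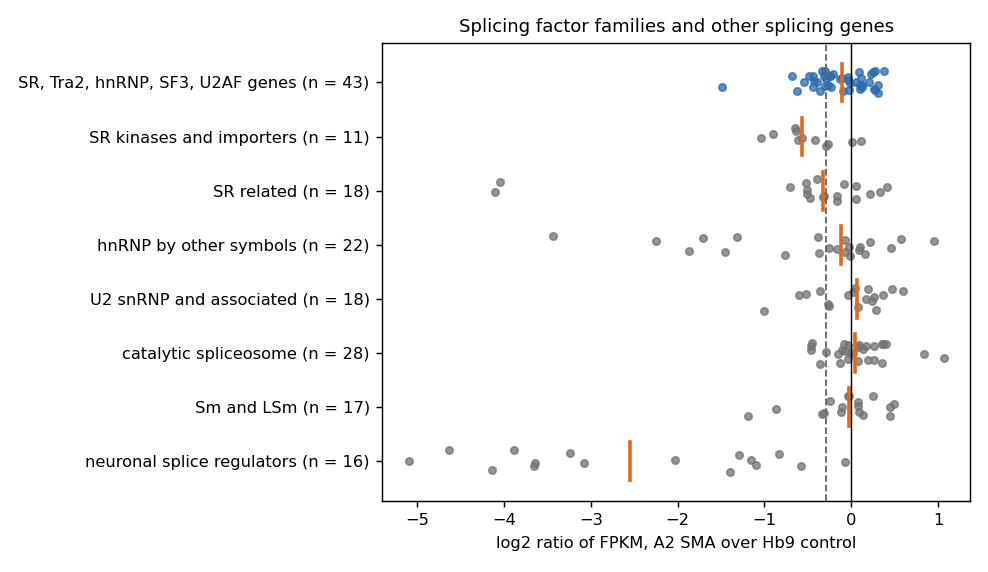
Log2 ratio of FPKM in SMA over control MNs for the genes of each list (1 point per gene, spread vertically for clarity), with the list median as an orange bar, 0 as a solid line and the median of all genes (-0.29) as a dashed line. The splicing factor families lie close to 0, the SR kinases and importers have a median of -0.57 and the neuronal splice regulators one of -2.55.

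Core spliceosome lists stayed near the splicing factor families. The 28 catalytic and snRNP proteins had a median log2 ratio of 0.04, with 0 lower by 1.5-fold (35.2% of all genes were) and 2 higher (7.14%, against 12.6% of all genes), namely the helicase gene Dhx16 (126 and 264 FPKM, 1.06) and Cdc5l (7.03 and 12.5 FPKM, 0.83). Relative to the median gene 0 were lower and 6 of the 28 higher (25.4% and 20.6% of all genes). The lowest ratio of this list was that of Prpf40b (73.1 and 53.0 FPKM, -0.46), and its most abundant gene was Eftud2, a U5 snRNP GTPase gene with 386 and 407 FPKM. Among 18 other U2 snRNP and associated genes the median was 0.06. U2surp had the highest ratio (52.4 and 79.4 FPKM, 0.60) and Zrsr1, a relative of U2af1, the lowest (12.5 and 6.20 FPKM, -1.01), while Sf1, the branch point binder that U2 replaces, had 423 and 447 FPKM. The 17 Sm and LSm genes had a median of -0.03, from Lsm11 (14.0 and 6.14 FPKM, -1.19) to Snrpe (82.6 and 116 FPKM, 0.49), and Lsm4 was the most abundant with 254 and 271 FPKM.

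The neuronal splice regulators differed most among these lists by their median. All 16 neuronal splice regulators above the filter were below 0 as deposited, and 14 of them (87.5%, against 35.2% of all genes) were lower by at least 1.5-fold, with a median of -2.55. Relative to the median gene 13 were, against 25.4% of all genes. The exception to direction under scaling was Mbnl2 (38.3 and 36.5 FPKM), which lay above the median gene. Rbfox1 had the lowest ratio (4.11 and 0.120 FPKM) and Elavl4 was the most abundant in control MNs (199 and 11.3 FPKM, -4.14), while Rbfox2 led in SMA MNs with 37.9 FPKM (status FAIL). In the SR-related list, with a median of -0.32 over 18 genes, 3 were lower by 1.5-fold (16.7%, against 35.2% of all genes) and 0 higher. Relative to the median gene 2 were lower and 2 higher (25.4% and 20.6% of all genes). Srrm4, the activator of neural microexons, had 16.9 and 0.983 FPKM (log2 ratio -4.10), Srrm3 had a log2 ratio of -4.05 and Luc7l one of -0.71. Bclaf1 had the highest ratio of that list (0.41, status FAIL), and Acin1 was the most abundant gene in control MNs with 275 and 245 FPKM, while Srrm1 led in SMA MNs with 263 FPKM. Among 22 genes of hnRNPs and related RNA-binding proteins with other symbols the median was -0.12. Of these, 7 were lower by 1.5-fold (31.8%, against 35.2% of all genes) and 1 higher (4.55%, against 12.6%). Relative to the median gene 6 were lower and 3 higher (25.4% and 20.6% of all genes). Ralyl had the lowest ratio (1.24 and 0.115 FPKM, -3.43), Fubp3 the highest (149 and 289 FPKM, 0.95), and Raly was the most abundant (401 and 446 FPKM, status FAIL). Rbmx, which encodes hnRNP G, had 54.8 and 11.5 FPKM (-2.25). Ptbp1, the repressor of neuronal exons, had 186 and 256 FPKM and its neural paralog Ptbp2 had 72.4 and 22.2 FPKM, so that Ptbp1 was 2.57 times as abundant as Ptbp2 in control MNs and 11.6 times in SMA MNs. Of the 13 pan-neuronal markers, 12 were lower in SMA MNs by at least 1.5-fold (92.3%, against 35.2% of all genes). Nefh was higher by at least 1.5-fold (2.54 and 4.93 FPKM), as were 12.6% of all genes. The part of these markers in the values above was not tested. Elavl3, Elavl4 and Rbfox3 are in both lists.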

How the data were processed

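RNA from FACS-collected Hb9 control and A2 SMA MNs (n = 3 samples per genotype, grouped by their labels) was sequenced as single-end reads. Per the labels and the methods of the study, the authors checked reads with FastQC (version 0.10.1), removed adapters by CutAdapt, aligned to NCBI m37 by TopHat (version 2.04) with the Ensembl annotation, and used Cufflinks for assembly and Cuffdiff for the comparison. Whether strand was used in counting is not given in the sources used here. The deposited table has 41945 genes and loci, with 1 FPKM value per genotype that the authors' Cuffdiff run formed over its 3 samples. Its fold changes, test statistics, p-values, q-values and significance marks are the authors' own comparison and were not used. Depth is unknown at the level of a gene, so no interval could be given.

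Gene names were split at commas, and a symbol found in more than 1 entry was represented by its most abundant entry. Genes had to reach 1 FPKM in either genotype and exceed 0 in both. A limit of 1.5-fold was used without a test, since there is 1 value per genotype. Relative values subtract the median log2 ratio of all genes. The start of a locus was raised by 1 base to count from 1. Python 3.11.15, numpy 2.4.6, pandas 2.3.3, scipy 1.17.1 and matplotlib 3.10.9 were used. The call rule was also run on simulated ratios with known shifts and little noise. That run cannot show how often calls in these data are wrong. Members, lists and limits were chosen with earlier results of these data known. The named genes are the members past 1.5-fold, the 3 most abundant of each family, Hnrnpr, Smn1, all other members by their values and, from each list, the highest and lowest ratio, the most abundant gene and some past 1.5-fold. Clk2, Srpk1, Ptbp1, Mbnl2 and other genes of lists within 1.5-fold were named after their values were seen. Of list genes absent by symbol, Lsm8, U2surp, Ptbp3 and Map2 were found under older symbols, and Slc18a3, Sox1 and Tubb3 were not found. Protein features, planned as a description, were not analysed here.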

Additional observations from a re-analysis of the deposited data

How the results depend on the processing

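No paired analysis was possible because the table holds 1 value per genotype and the replicate numbers of the labels have no column in it, and for the same reason no sample could be left out. Since no replicate spread is known, log2 values that moved by under 0.1 and shares that moved by under 1 percentage point were taken as unmoved. Centred on the median gene, counts past 1.5-fold were 1 lower and 3 higher (25.4% and 20.6% of all genes). Medians were then 0.18 (all members), 0.044 (SR proteins), 0.41 (Tra2), 0.051 (hnRNPs), 0.41 (SF3) and -0.013 (U2AF). Upper quartile scaling gave 1 and 3 (25.3% and 20.7% of all genes), with medians of 0.18, 0.048, 0.41, 0.055, 0.41 and -0.0087. Scaled to Gusb, Pgk1 and Rpl13a, 1 was lower and 0 higher (29.9% and 16.2% of all genes), with medians of 0.035, -0.10, 0.26, -0.094, 0.26 and -0.16. A limit of 2-fold left 1 lower and 0 higher (22.2% and 6.78% of all genes), and a looser one, a ratio of 5 to 4, gave 11 lower and 1 higher (48.3% and 19.7% of all genes). A filter of 5 FPKM removed Srsf12, which left 2 lower (33.6% of all genes), and moved the SR protein median to -0.14. One of 50 FPKM, chosen after seeing the data, left 1 lower (26.7% of all genes) and moved the medians of SR proteins to -0.076 and of Tra2 to -0.015. Leaving out entries with several symbols moved the U2AF median to -0.41. With Hnrnpf summed over its entries, 4 of 44 members were lower by 1.5-fold (35.2% of all genes). Shares of the family total in Hb9 control and A2 SMA MNs without the status FAIL were 34.1% and 29.0% for Srsf1, 23.8% and 19.4% for Hnrnph1 and 16.1% and 23.9% for Hnrnpd. Without entries that name several symbols they were 31.8% and 27.4%, 18.9% and 15.3%, and 12.8% and 18.8%. Both alternatives leave out Srsf2, so its share has no value there. None of the 3 members past 1.5-fold changed sign under any alternative that kept it. Each scaling shifts all genes by less than that limit, and pseudocounts and filters cannot reverse a sign. The kept signs are therefore no separate evidence of a direction. Smaller choices (a pseudocount of 0.1 or 1 FPKM, no FPKM filter, summed entries) left every median within 0.1.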

Other observations

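Some members have close neighbours in the genome, and as deposited neighbours did not share a direction in every case. Hnrpll and Srsf7 lie 137606 bp apart on chromosome 17 and had log2 ratios of -0.54 and 0.30. Hnrnpd and Hnrpdl had 0.38 and -0.23 at 54638 bp. Hnrnpa0 and Hnrnpk, 262585 bp apart on chromosome 13, had -0.39 and -0.27, and Srsf10 and Hnrnpr, 441033 bp apart on chromosome 4, had -0.04 and -0.36. Hnrpdl, Hnrnpk and Srsf10 changed sign with scaling. Only for Hnrpll and Srsf7 was the comparison of directions the same under every scaling.

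Genes that share a locus with a member, and whose reads may not be told apart from its own, were in part lower where the member was not. Jmjd6, which encodes a hydroxylase of the large U2AF subunit, lies at the locus of Srsf2 and had 120 and 61.9 FPKM in Hb9 control and A2 SMA MNs (log2 ratio -0.96, status FAIL), where Srsf2 had 0.09. An entry at the same locus that names both 1110005A03Rik and Mfsd11 had -0.84. Rufy2, at the locus of Hnrnph3, had 31.6 and 18.7 FPKM (log2 ratio -0.75, beside -0.62 for Hnrnph3). At the locus of Hnrnpf, 4933440N22Rik had 2.35 and 5.40 FPKM. These neighbours were chosen after their values were seen.

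Promoter windows of RefSeq (GRCm38.p6, 250 bases before to 50 after a start site), matched by symbol, were available for 39 of the 45 members in 53 windows. Their median GC content was 65.0%, against 52.7% over all 32851 windows, and they held a median of 27 CG dinucleotides, against 7. TATAAA on either strand was in 5 windows (9.43%, against 13.6% of all windows) and CCAAT on either strand in 27 (50.9%, against 37.4%). A match of these letters is a description and not a binding site.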
